A study of Gallus gallus with 5 samples.

Results

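The nuclear-encoded respiratory chain genes are those whose symbols begin with NDUF, UQCR, ATP5 or COX and a digit, or are SDHA to SDHD. They were found by matching the RefSeq accession of each row, without its version, to a chicken gene symbol in the table of the assembly GRCg7b. Of 92 nuclear symbols in that table that fit, 45 had a row, among 16143 features in all. They comprise 18 complex I subunits, 1 complex II subunit, 5 complex III subunits, 5 complex IV subunits, 8 complex V subunits and 8 assembly factors. The other symbols were not analysed here. The rule of selection uses no measured value, but it was chosen with earlier results of these data known.

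DT40, the chicken line from which the RNA came, derives from a B-cell lymphoma. Every sample is described as CAP-H KO cells, and CAP-H is the kleisin of condensin I, which folds chromosomes for mitosis. No doxycycline was given in the 3 CAP-H on samples (replicates 1, 2 and 3), and their listed time is 36 h. The 2 CAP-H off samples (replicates 1 and 3) had 100 ng/ml doxycycline for 36 h. Doxycycline and the state of CAP-H change together between the groups and cannot be told apart. Nothing in the labels tells if each replicate was its own culture, and the spread behind every p-value may be technical. The question is what follows for RNA levels when CAP-H is switched off.

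The respiratory chain sits in the inner mitochondrial membrane. Complexes I and II pass electrons from NADH and succinate to coenzyme Q, complex III passes them to cytochrome c, and complex IV passes them to oxygen. Complexes I, III and IV pump protons, and complex V, the ATP synthase, uses the resulting gradient to make ATP. Most subunits are encoded in the nucleus and a few in mitochondrial DNA, so assembly joins products of both genomes with the help of dedicated assembly factors that are not part of the finished complexes. Many accessory subunits are short proteins around a few conserved catalytic ones. The roles given for single genes are known mainly from mammals and yeast.

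Total counts ranged from 12199522 to 22533003 per library over all rows, and from 11564042 to 21228020 over the 16143 features left once repeated rows were reduced. Levels are in CPM, the count relative to the library's total over the tested features, after TMM scaling, which sets the typical feature to an unchanged level. Every log2 fold change is CAP-H off over CAP-H on. A gene is said to have risen or fallen where the adjusted p of edgeR's quasi-likelihood test, over 10079 features, was below 0.05. The labels could not be checked by the targeted gene, because 0 rows matched NCAPH. Among B-cell markers, PAX5, EBF1, CD79B and BTK were expressed. The 11 of 14 that had a row summed to 1396 to 1441 CPM in the CAP-H on libraries and 1097 to 1149 CPM in the CAP-H off libraries. Of these 11, 6 fell and 1 rose, where 23.7% of all features fell and 22.6% rose. The 4 of 9 erythroid and thrombocyte markers with a row summed to between 0.330 and 0.486 CPM over all libraries, with HBA1, HBE and TAL1 at 3 counts or fewer in each. The 7 of 8 macrophage and granulocyte markers with a row summed to 174.7 to 187 CPM in the CAP-H on libraries and to 127 and 127.5 CPM in the CAP-H off libraries, with MARCO at 3 counts or fewer in every library. Of the 5 that could be tested, 4 fell, against 23.7% of all features. These were MMP9 (-1.84), MPEG1 (-1.51), CTSS (-1.08) and CYBB (-0.52), while SPI1, the largest part of the sum, did not pass (-0.13). The 6 of 8 T-cell markers summed to 88.3 to 99.0 and 103.7 to 104.6 CPM, nearly all of it CD3D, with CD28 and GATA3 at 3 counts or fewer, and the 3 of 6 fibroblast markers to 30.5 to 35.5 and 31.9 to 34.4 CPM, nearly all of it COL1A2, with DCN at 3 counts or fewer. The part of these markers in the results below was not tested. In bulk RNA, fewer cells of a type and less RNA per cell cannot be told apart.

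Most respiratory chain genes were higher in the CAP-H off libraries. Of the 44 that could be tested, 31 rose, 1 fell and 12 did not pass. That is 70.5% higher, where 22.6% of all features rose, 23.7% fell and 46.3% did either. The median log2 fold change of the genes was 0.34, against 0.00 over all features, and the range ran from -0.33 for ATP5F1AZ to 0.94 for ATP5I. Both CAP-H off libraries lay above all 3 CAP-H on libraries for 35 genes and below them for 3. Of all features 32.1% and 32.9% did so, or 64.9% in either direction. These counts rest on levels divided by TMM factors of 1.044 to 1.067 in the CAP-H on libraries and 0.927 to 0.928 in the CAP-H off libraries. Whether groups stay apart with library size alone was not computed, here or for the single genes below. For 14 genes the log2 fold change was 0.5 or more, a description for which no share of all features was computed. Together the 45 genes took 0.494% to 0.531% of the counts of the 16143 features in the CAP-H on libraries and 0.588% and 0.589% in the CAP-H off libraries. With scaling by library size alone, which moved the median of all features by -0.18, 21 rose and 3 fell, against 12.6% and 40.9% of all features.

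**Figure D1:**
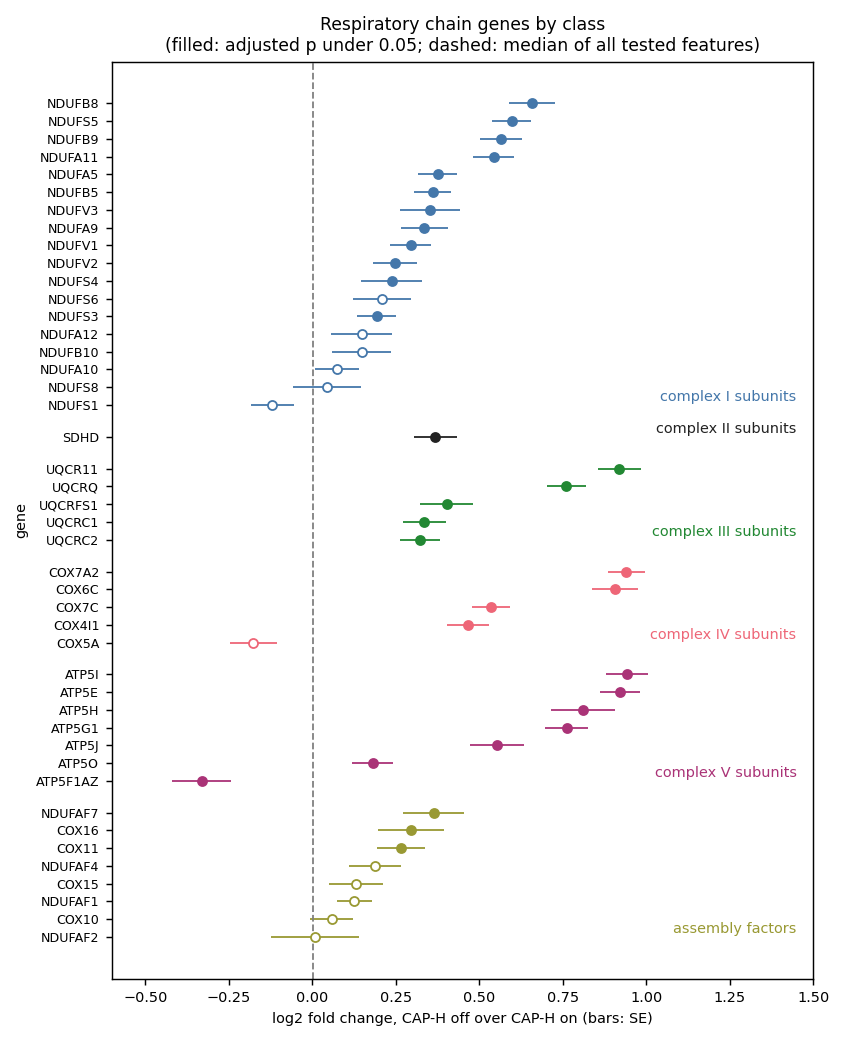
Log2 fold change (x axis, CAP-H off over CAP-H on, bars are SE) of the 44 tested genes (y axis), grouped by class; filled points passed at an adjusted p below 0.05, and the dashed line is the median of all tested features. Complexes III to V reach 0.92 to 0.94 at their upper ends, ATP5F1AZ is the gene that fell (-0.33), and the assembly factors lie between 0.0082 and 0.36; under library size scaling every value is lower by about the -0.18 shift of all features, which takes the assembly factor median to -0.022.

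Complex I, the NADH dehydrogenase, had 18 measured subunits, of which 12 rose and 6 did not pass, with a median log2 fold change of 0.27. Among all features 22.6% rose. The 4 strongest calls were accessory subunits of the membrane arm. NDUFB8 (chromosome 6, 16971549 to 16974434 in galGal4, the build of all coordinates here), of the distal part of that arm, stood at 66.1, 74.7 and 76.6 CPM in the CAP-H on libraries (replicates 1, 2 and 3) and at 108 and 120.05 CPM in the CAP-H off libraries (replicates 1 and 3). The groups were well apart, and NDUFB8 was 1.58-fold higher (log2 0.66, SE 0.07, adjusted p = 1.24e-06). NDUFS5, which faces the intermembrane space, stood at 61.1, 61.3 and 61.5 CPM and then at 90.1 and 95.4 CPM (log2 fold change 0.60, SE 0.06, adjusted p = 5.55e-07). The 3 CAP-H on libraries were almost level for this gene. NDUFB9 stood at 159, 159 and 168 CPM and then at 244 and 234 CPM (0.56, SE 0.06, adjusted p = 2.71e-06). NDUFA11 stood at 84.9, 92.4 and 99.0 CPM and then at 134 and 134 CPM (0.54, SE 0.06, adjusted p = 2.82e-06). In both genes both CAP-H off libraries exceeded all 3 CAP-H on libraries.

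Within complex I the catalytic core had a lower median than the accessory subunits, a difference that was not tested. Of its 5 measured core subunits 3 rose and 2 did not pass, and their median log2 fold change was 0.19. Of the 13 accessory subunits 9 rose and 4 did not pass, and their median was 0.35. Both counts stand beside the 22.6% of all features that rose. NDUFV1, which binds the flavin that accepts electrons from NADH, stood at 76.9, 80.6 and 84.4 CPM and then at 94.5 and 103 CPM (0.29, SE 0.06, adjusted p = 0.000889), so its groups were apart. The core iron-sulfur subunit gene NDUFV2 (0.25) and the core subunit gene NDUFS3 (0.19) rose too. NDUFS1, the largest iron-sulfur subunit, stood at 232, 249 and 240.15 CPM and then at 219.5 and 223 CPM. Its CAP-H off libraries were the lowest, but the log2 fold change of -0.12 (SE 0.06, adjusted p = 0.136) did not pass. NDUFS8, an iron-sulfur subunit, stood at 40.1, 47.0 and 36.2 CPM and then at 40.4 and 44.6 CPM. Its groups overlapped (0.0435, SE 0.10, adjusted p = 0.755). Among accessory subunits NDUFA5 (0.37), NDUFB5 (0.36), NDUFV3 (0.35), NDUFA9 (0.34) and NDUFS4 (0.24) rose as well. NDUFS6 (0.21), NDUFA12 (0.15), NDUFB10 (0.15) and NDUFA10 (0.074) did not pass, and of these 4 all but NDUFS6 had overlapping groups. Without CAP-H on replicate 3 NDUFS6 (0.26, adjusted p = 0.0255) and NDUFA12 (0.24, adjusted p = 0.0253) passed as higher, and so did NDUFB10 without CAP-H on replicate 2 (0.26, adjusted p = 0.0108). With 1 library left out, NDUFS6 ranged from 0.12 to 0.26, NDUFA12 from 0.056 to 0.24, NDUFB10 from 0.079 to 0.26 and NDUFA10 from 0.024 to 0.13. With library size alone NDUFA9, NDUFV1, NDUFV2, NDUFV3, NDUFS3 and NDUFS4 lost their calls (adjusted p from 0.0571 to 0.891), NDUFS1 passed as lower at -0.30 (adjusted p = 0.000499), and NDUFS8, NDUFA12, NDUFB10 and NDUFA10 turned to values from -0.14 to -0.034. NDUFS4, whose groups overlapped, was not called either without CAP-H off replicate 1 (0.079, adjusted p = 0.612), CAP-H on replicate 1 (adjusted p = 0.107) or CAP-H on replicate 2 (adjusted p = 0.127). DESeq2 did not call NDUFS4 either (adjusted p = 0.0758). NDUFS3 was not called without CAP-H off replicate 1 (0.11, adjusted p = 0.324). Without a filter on low counts neither NDUFS3 (adjusted p = 0.0638) nor NDUFS4 (adjusted p = 0.124) was called.

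**Figure D2:**
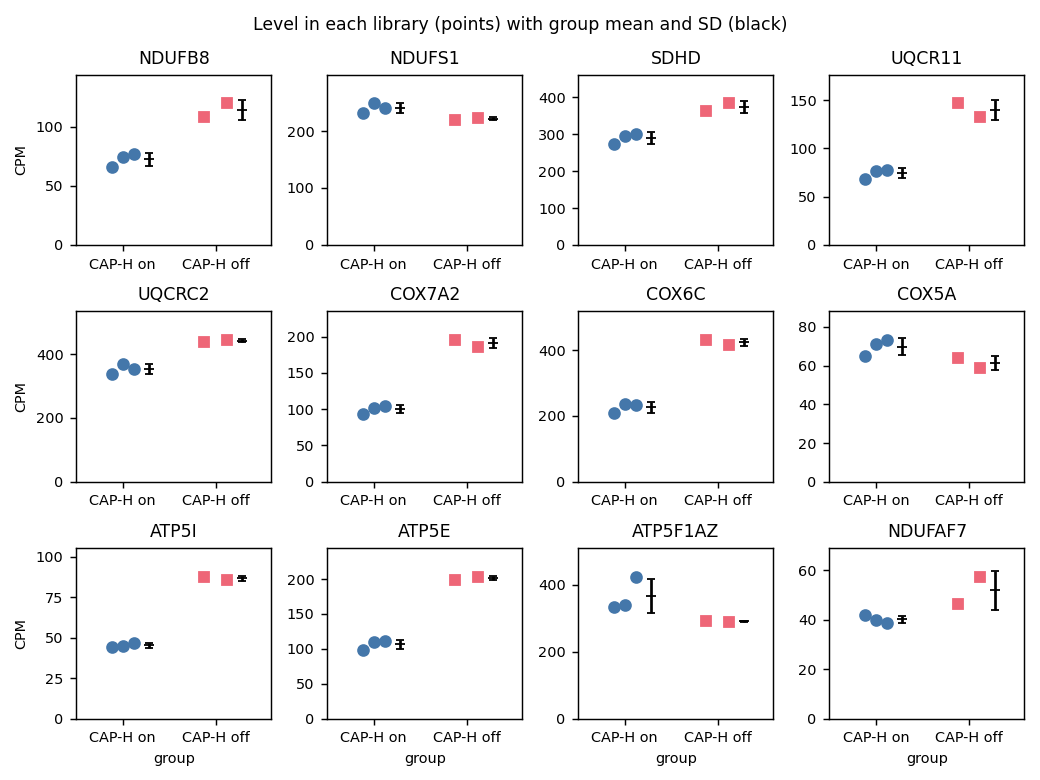
Level in CPM (y axis, from 0) of 12 genes in each library, by group (x axis); circles are CAP-H on, squares CAP-H off, and black marks give the group mean and SD (n = 3 and n = 2). COX7A2, COX6C, ATP5I, ATP5E and UQCR11 lie near 1.9-fold higher in CAP-H off with no overlap. NDUFS1, COX5A and ATP5F1AZ lie below the CAP-H on libraries, but of these only ATP5F1AZ passed as lower.

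SDHD, a membrane anchor of succinate dehydrogenase, was the measured gene of complex II. It stood at 273, 294 and 302 CPM in the CAP-H on libraries and at 363 and 385 CPM in the CAP-H off libraries. The groups did not overlap, and SDHD rose (log2 fold change 0.37, SE 0.06, adjusted p = 0.00023). With library size alone its log2 fold change was 0.19.

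All 5 measured subunits of complex III, the cytochrome bc complex, rose. Their median log2 fold change was 0.40, and for all 5 the CAP-H off libraries lay above the others. Of all features 22.6% rose, and 32.1% had both CAP-H off libraries above the others. The small subunit genes rose most. UQCR11 (chromosome 28, 2372739 to 2374642) stood at 68.0, 76.9 and 77.7 CPM and then at 147 and 132 CPM (log2 fold change 0.92, SE 0.07, adjusted p = 1.6e-08). UQCRQ stood at 66.5, 62.0 and 63.3 CPM and then at 111 and 106 CPM (0.76, SE 0.06, adjusted p = 3.2e-08). Both CAP-H off libraries were well above the rest for these 2 genes. The large core protein genes rose less. UQCRC2 stood at 338, 369 and 352 CPM and then at 439 and 445 CPM (0.32, SE 0.06, adjusted p = 0.000361), and UQCRC1 stood at 279.7, 303 and 307 CPM and then at 360.2 and 388 CPM (0.34, SE 0.065, adjusted p = 0.000544). Both had groups that were apart, with a smaller fold than the small subunits. UQCRFS1, the Rieske iron-sulfur protein that hands electrons on, stood at 148, 179 and 177 CPM and then at 224 and 220.1 CPM (0.40, SE 0.08, adjusted p = 0.000617), with CAP-H on replicate 1 the lowest. All 5 rose under library size scaling too, where their median was 0.22.

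In complex IV, cytochrome c oxidase, 4 of the 5 measured subunits rose and 1 did not pass, with a median log2 fold change of 0.53. The share of all features that rose was 22.6%. COX7A2 (chromosome 3, 80197964 to 80201300), a small membrane-spanning subunit, stood at 93.8, 101 and 104 CPM in the CAP-H on libraries and at 196 and 186 CPM in the CAP-H off libraries (0.94, SE 0.06, adjusted p = 1.97e-09). COX6C, another short membrane subunit, stood at 208, 238 and 234 CPM and then at 432 and 416 CPM (0.91, SE 0.07, adjusted p = 3.02e-08). Both genes were close to 1.9-fold higher with wide gaps between groups. COX7C stood at 68.3, 66.4 and 70.9 CPM and then at 101 and 97.5 CPM (0.53, SE 0.06, adjusted p = 1.49e-06). COX4I1, the widely expressed form of a regulatory subunit, stood at 189.5, 199 and 204 CPM and then at 279 and 266 CPM (0.47, SE 0.06, adjusted p = 2.16e-05). COX5A, a subunit on the matrix side, went the other way in level. It stood at 65.0, 70.9 and 73.3 CPM and then at 63.9 and 58.95 CPM, so both CAP-H off libraries were below the others, and its log2 fold change of -0.18 (SE 0.07, adjusted p = 0.0511) did not pass. It passed as lower with library size alone (-0.36, adjusted p = 0.000258), without a filter on low counts (-0.21, adjusted p = 0.0311) and without CAP-H on replicate 1 (-0.23, adjusted p = 0.0173).

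Complex V, the ATP synthase, had the widest span of fold changes. Of 7 tested subunits 6 rose and 1 fell, with a median log2 fold change of 0.76. Over all features 22.6% rose and 23.7% fell. ATP5I (chromosome Z, 53307242 to 53309110), the membrane subunit e that helps the enzyme form dimers, stood at 44.1, 44.5 and 46.9 CPM and then at 87.7 and 85.6 CPM (0.94, SE 0.06, adjusted p = 8.43e-09). ATP5E, the epsilon subunit of the rotating stalk, stood at 98.8, 109.5 and 111 CPM and then at 199 and 204 CPM (0.92, SE 0.06, adjusted p = 5.09e-09). Replicates were close within both groups for these genes. ATP5G1, a gene of the c subunit that forms the proton-driven ring, stood at 93.8, 109.5 and 111 CPM and then at 177 and 177 CPM (0.76, SE 0.065, adjusted p = 1.3e-07). ATP5H, subunit d of the outer stalk, stood at 52.5, 60.1 and 73.6 CPM and then at 107 and 108 CPM (0.81, SE 0.10, adjusted p = 4.86e-06). The CAP-H on libraries were more spread for ATP5H but stayed below the others. ATP5J, a further outer stalk subunit, stood at 73.7, 89.6 and 92.2 CPM and then at 131 and 117 CPM (0.55, SE 0.08, adjusted p = 4.44e-05). ATP5O, which joins the outer stalk to the catalytic head, stood at 135, 142 and 140 CPM and then at 147 and 167 CPM (0.18, SE 0.06, adjusted p = 0.0254). ATP5O moved least of those that rose, and it was not called without CAP-H off replicate 3 (0.091, adjusted p = 0.349), without a filter on low counts (0.14, adjusted p = 0.0819) and with library size alone, where its log2 fold change was -0.0010 (adjusted p = 0.991). The c subunit is encoded by several genes of the ATP5G family. Whether reads were shared out between them was not tested, which leaves the level of ATP5G1 uncertain.

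The gene that fell was ATP5F1AZ (chromosome Z, 2151455 to 2159195), the alpha subunit of the catalytic head. It stood at 335, 339 and 425 CPM in the CAP-H on libraries and at 293 and 289 CPM in the CAP-H off libraries. The 2 CAP-H off libraries were nearly level and below all others, and CAP-H on replicate 3 was the highest. The log2 fold change was -0.33 (SE 0.09, adjusted p = 0.00603), which is 0.795 times the level, and DESeq2 gave -0.33 without a call (adjusted p = 0.0729). Without CAP-H on replicate 3 the log2 fold change was -0.21 (adjusted p = 0.0312). A related copy on chromosome W, ATP5F1AW, was not analysed here, and reads may have been shared out between the copies, which leaves the level of ATP5F1AZ uncertain. ATP5B, the catalytic beta subunit, had the lowest count of 1 in all 5 libraries and was not tested. All 59 features of its contig in galGal4 were at that count, so its value holds no reading of expression.

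The assembly factors had the lowest median of the classes, a difference that was not tested. Of 8, 3 rose and 5 did not pass, with a median log2 fold change of 0.16 against 0.36 for the 36 tested subunits, 28 of which rose. For comparison, 22.6% of all features rose. NDUFAF7, a methyltransferase that acts early in complex I assembly, stood at 41.8, 39.7 and 38.8 CPM and then at 46.2 and 57.5 CPM (0.36, SE 0.09, adjusted p = 0.00376). Its CAP-H off libraries were above the others but differed between themselves. COX11, which brings copper to complex IV, stood at 50.1, 50.7 and 49.1 CPM and then at 56.8 and 63.5 CPM (0.265, SE 0.07, adjusted p = 0.00621). COX16, another complex IV assembly factor, stood at 25.4, 23.3 and 24.4 CPM and then at 29.3 and 30.6 CPM (0.30, SE 0.10, adjusted p = 0.0238). None of the 3 was called when CAP-H off replicate 3 was left out (adjusted p = 0.132 for NDUFAF7, 0.13 for COX11 and 0.105 for COX16) or with library size alone, where the median of the 8 factors was -0.022 and 4 of them turned negative. COX16 was not called without CAP-H on replicate 2 (adjusted p = 0.0785) or without a filter on low counts (adjusted p = 0.0621) either. NDUFAF4 stood at 42.8, 44.9 and 47.7 CPM and then at 49.1 and 53.5 CPM, and its log2 fold change of 0.19 (SE 0.08, adjusted p = 0.059) did not pass, though it did without CAP-H on replicate 3 (0.23, adjusted p = 0.0357). The others that did not pass were COX15, which makes heme A (0.13), the complex I factor gene NDUFAF1 (0.13), COX10, the heme O synthase (0.058), and NDUFAF2, a relative of NDUFA12 (0.0082). In 7 of the 8 genes both CAP-H off libraries lay above the rest after TMM scaling, against 32.1% of all features. Even so, the fold was at most that of NDUFAF7. How many of the 8 stay apart with library size alone was not computed, so this count depends on the scaling.

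Because the members of a complex moved by different amounts, the balance of counts within a library differed between groups, a measure that no scaling between libraries touches. For each complex with at least 2 tested genes, the gene with the highest fold change was set against the one with the lowest, a choice made from the values, so no test is given. The ratio of ATP5I to ATP5F1AZ counts was 0.132, 0.131 and 0.110 in the CAP-H on libraries and 0.2996 and 0.296 in the CAP-H off libraries, a 2.39-fold difference of means. The ratio of COX7A2 to COX5A counts was 1.44, 1.43 and 1.42 and then 3.06 and 3.16, a 2.17-fold difference. The 3 CAP-H on libraries were nearly equal for this pair. The ratio of NDUFB8 to NDUFS1 counts was 0.285, 0.2996 and 0.319 and then 0.491 and 0.538 (1.71-fold). The ratio of UQCR11 to UQCRC2 counts was 0.201, 0.208 and 0.221 and then 0.335 and 0.298 (1.51-fold). In every one of these 4 pairs the groups were apart, which follows largely from choosing the extremes and is no separate finding. The level of ATP5F1AZ, in the pair with the largest difference, is uncertain as said above.

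**Figure D3:**
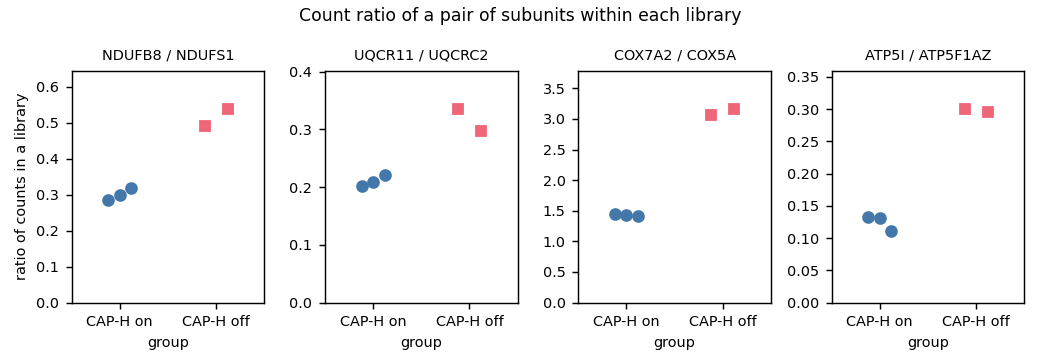
Ratio of the counts of a pair of subunits of the same complex (y axis, from 0) in each library, by group (x axis); circles are the 3 CAP-H on libraries and squares the 2 CAP-H off libraries. Each pair sets the highest fold change of a complex over the lowest, a choice made from the values. The ratio is thus higher in both CAP-H off libraries in each pair, from 1.51-fold for UQCR11 over UQCRC2 to 2.39-fold for ATP5I over ATP5F1AZ.

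The genes with the largest fold changes occupy short stretches of the genome. Across the 44 tested genes, Spearman's rho of the log2 fold change with genomic span was -0.533, and across all 10079 features it was -0.226. These genes and features share the same libraries, and the correlations are given as descriptions. No gene spanned less than 1000 bp, where 28.5% of all features rose, with a median of 0.076. Of the 25 genes with spans of 1000 bp to below 5000 bp, 21 rose, and their median log2 fold change was 0.53, while 35.2% of all features of such spans rose, with a median of 0.17. Of the 13 genes of 5000 bp to below 20000 bp, 8 rose and 1 fell, with a median of 0.32, against 24.3% of all features and a median of 0.035. Of the 6 genes of 20000 bp to below 100000 bp, 2 rose, with a median of 0.14, against 14.2% of all features and a median of -0.10. The assembly factors had a median span of 5902 bp and the subunits one of 3744 bp. Span thus moves with the fold change both inside and outside this group of genes, and its part in the result was not tested. Across the 44 genes rho with the mean level was 0.214, and across all features it was -0.0956.

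**Figure D4:**
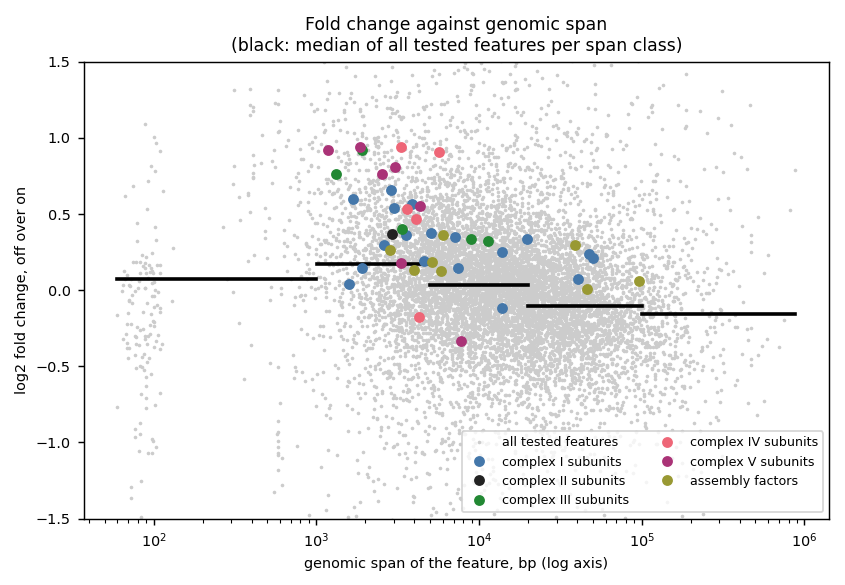
Log2 fold change (y axis, off over on) against genomic span in bp (x axis, log scale) for all tested features (grey; 253 lie outside the axis) and the 44 respiratory chain genes (coloured by class); black lines are medians of all features per span class. The medians are 0.076 below 1000 bp and go from 0.17 at 1000 to 5000 bp to -0.15 above 100000 bp, and 21 of the 25 respiratory chain genes of 1000 to 5000 bp rose.

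Within 5 kb, 37 of the 45 genes had another feature. Of 32 tested neighbours of the genes that rose, 6 rose, 6 fell and 20 did not pass, which is near the 22.6% and 23.7% of all features. ATP5J lies 187 bp from GABPA, which encodes an ETS transcription factor known in mammals as a regulator of respiratory genes, and GABPA fell (log2 fold change -0.23, SE 0.06, adjusted p = 0.00707) where ATP5J rose. ATP5J (chromosome 1, 101879820 to 101884142) also overlaps JAM2, which ends at 101879826 and was not tested. Reads within that short overlap may belong to either gene. COX6C rose by 0.91 while XM_418354.3, a feature without a symbol 2768 bp away, fell (-0.42, SE 0.07, adjusted p = 9.1e-05). COX7A2 rose while TMEM30A, 4419 bp away, fell (-0.21, SE 0.07, adjusted p = 0.0205). NDUFS1 lies 507 bp from EEF1B2, a translation elongation factor gene, which rose (0.39, SE 0.05, adjusted p = 3.6e-06). COX4I1 and EMC8, 185 bp apart, both rose (0.47 and 0.37), and so did UQCRC2 and CRYM, 64 bp apart (0.32 and 0.72). These neighbours were named after their values were seen.

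Other genes of mitochondrial energy metabolism moved in both directions. In 6 lists 76 genes were tested, of which 31 rose, 13 fell and 32 did not pass, with a median log2 fold change of 0.12. That is 40.8% higher and 17.1% lower, where 22.6% of all features rose and 23.7% fell. With library size alone 18 rose and 28 fell, where 12.6% of all features rose and 40.9% fell. The fold changes below thus hold relative to the -0.18 shift of all features. Of 11 genes of electron carriers and coenzyme Q synthesis 8 rose and 1 fell, led by the coenzyme Q synthesis genes COQ9 (46.7 ± 2.24 to 80.9 ± 1.97 CPM, SD, n = 3 and n = 2; 0.80), COQ3 (0.57) and COQ5 (0.54). Of 16 protein import genes 9 rose and 3 fell, and the outer membrane translocase genes TOMM5 (0.82), TOMM20 (0.62) and TOMM7 (0.61) had the lowest p. TOMM70, a receptor of the same translocase named after its value was seen, fell (-0.34, adjusted p = 0.000605). Of 3 tested carrier and channel genes 2 rose, SLC25A6, an ADP/ATP carrier (0.65), and SLC25A3, the phosphate carrier (0.42), and VDAC2 (0.12) did not pass. Further assembly factors outside the symbol rule rose in 7 of 20 cases and fell in 1. Among these COA3, a complex IV factor (0.95), and TMEM242 (0.43) rose, and LRPPRC, which stabilises mitochondrial messenger RNA, fell (-0.27).

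Of 13 tested genes of the citric acid cycle and pyruvate dehydrogenase, 4 rose, 4 fell and 5 did not pass, with a median log2 fold change of 0.076. PDHB, of the pyruvate dehydrogenase complex (0.44), and IDH3A, of isocitrate dehydrogenase (0.33), were among those that rose. Those that fell, named after their values were seen, were DLD (-0.25), a component of pyruvate dehydrogenase, the mitochondrial isocitrate dehydrogenase gene IDH2 (-0.25), the malate dehydrogenase gene MDH2 (-0.23) and the fumarase gene FH (-0.17). With library size alone IDH3A was not called (0.15, adjusted p = 0.0628). Of 13 tested genes of mitochondrial DNA expression, biogenesis control and proteolysis, 1 rose, 4 fell and 8 did not pass, where 22.6% of all features rose and 23.7% fell, and their median was -0.015. GABPB1 rose (0.29), though not with library size alone (0.11, adjusted p = 0.108), and the protease gene LONP1 (-0.27) and GABPA fell, GABPA without a call when CAP-H off replicate 3 was left out (-0.16, adjusted p = 0.0542). NRF1, a transcription factor known in mammals for binding promoters of respiratory genes, stood at 42.5, 47.0 and 37.7 CPM and then at 34.3 and 32.2 CPM. It was named after its values were seen, and it fell (-0.35, SE 0.10, adjusted p = 0.00747). TFAM, which packages mitochondrial DNA, had 0.019 (adjusted p = 0.837), was named likewise, and did not pass. Against the 2 most like groups of genes, the respiratory chain median of 0.34 lay between 0.89 for 43 cytosolic ribosomal protein genes and 0.13 for 37 mitochondrial ribosomal protein genes. All 43 of the former rose, and of the latter 14 rose and 2 fell. These differences between groups were not tested.

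The authors' deposited table lists 20 of the 45 genes, where it lists 22.3% of all identifiers and 7.65% with a positive value. Of the 20, 19 had a positive log2 fold change in the authors' deposited table and ATP5F1AZ had -0.47. Its highest values among these genes were 0.86 for COX7A2, 0.85 for COX6C and 0.85 for UQCR11, all in the authors' deposited table. All 20 passed in the same direction in the fit used here. Both compare the same groups of this series, so this is not independent evidence. The other genes that rose here are not listed in the authors' deposited table.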

How the data were processed

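RNA-seq counts of 5 libraries were analysed, grouped by their labels. The deposited files hold whole-number counts per RefSeq transcript on galGal4, in 17036 rows with a smallest count of 1. Per the submitters' processing notes, the tools were FastQC, Bowtie, TopHat2 (version 2.0.8b) and edgeR (version 3.2.3), listed without roles. Which program counted reads, and whether by strand, is not given in the sources used here. Per the file headers, the authors' deposited table holds p-values, a likelihood ratio score (not used), and mean CPM and fold changes on the log2 scale.

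Rows with the same interval, or with the same identifier and equal counts, were reduced to 1, which left 16143 features. A symbol was found for 52.3% of rows. The test was edgeR's (version 4.0.16, R version 4.3.3; filterByExpr, TMM, glmQLFit and glmQLFTest, Benjamini-Hochberg over all features, threshold 0.05). It was first run on simulated counts in which few features changed, equally up and down. Such a simulation does not cover these data, where 46.3% of features passed and calls depended on the scaling. The SE is the log2 fold change over the square root of F. Fitting 2 CAP-H off libraries limits precision; the lowest count of a tested member was 202. Overlapping features (13.0%) and strands were not separated. Apart from the marker sums and the genes named as their main part, CPM of different genes were not compared, since transcript lengths were not used.

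The members and gene lists were chosen with earlier results of these data known. Members of lowest p in each class (up to 4) and members that fell have full values, other members their fold change, and other lists up to 3 genes (1 or more are not reported here); NDUFV1, NDUFS1, NDUFS8, UQCRFS1, COX5A, ATP5J, ATP5O, NRF1 and TFAM were given in more detail after their values were seen. Alternatives were library size scaling, RLE size factors, DESeq2 1.42.0, other filters, a replicate block, overlapping members left out, and each library left out. Promoter motifs were not analysed here.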

Additional observations from a re-analysis of the deposited data

How the results depend on the processing

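Across 12 alternatives, 21 of the 31 genes that rose kept their call in each, with ATP5J absent from the alternative without overlapping members. The count that rose was 30 to 34 with 1 CAP-H on library left out, 29 with the replicate block and 30 by DESeq2. It was 31 with RLE size factors, 33 at a mean of at least 5 CPM, 27 without a filter on low counts and 21 with library size alone. Leaving out a CAP-H off library leaves 1 in that group, so no count is given for it, and the range here does not cover it. Over all features, 2006 to 2171 rose with 1 CAP-H on library left out, of 9937 to 10077 tested. Of 10079 features, 1865 rose with the replicate block, 2036 by DESeq2, 2305 with RLE size factors and 1272 with library size alone. Without a filter 2018 of 13319 rose, and at a mean of at least 5 CPM 2125 of 8189. The count that fell was 3 with library size alone, 2 without a filter on low counts, and 1 to 2 with 1 CAP-H on library left out. It was 0 by DESeq2, where 1 gene was lower at an unadjusted p below 0.05 (2 by edgeR). Over all features, 4119 of 10079 fell with library size alone, 2520 of 13319 without a filter and 2119 of 10079 by DESeq2. With 1 CAP-H on library left out, 2111 to 2277 fell. Library size alone took the median log2 fold change to 0.090 for complex I, 0.19 for complex II, 0.22 for complex III, 0.35 for complex IV, 0.58 for complex V and -0.022 for the assembly factors, and the other pathway genes to 18 higher and 28 lower. Under it 23.6% of all calls were higher, against 48.9%. It turned COX10 to -0.12, NDUFA10 to -0.11, COX15 to -0.051, NDUFA12 to -0.034, NDUFAF2 to -0.17, NDUFS8 to -0.14, NDUFB10 to -0.034, ATP5O to -0.0010, NDUFAF1 to -0.057 and VDAC2 to -0.065. NDUFAF2 turned to -0.030 without a filter. With 1 library left out, NDUFAF2 ranged from -0.16 to 0.16 and NDUFS8 from -0.031 to 0.15. Over all features, the rank correlation of the fold change with span was -0.15 without a filter and -0.32 at a mean of at least 5 CPM, and that with level was -0.19 without a filter. The promoter motif search and its change of window were not run, for want of a sequence table. The cause of shifts other than those from scaling was not tested.

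Replicate numbers 1 and 3 are shared by both groups, and the deviations of same-numbered libraries had correlations of -0.0108 and -0.0287. The deviations of the 2 CAP-H off libraries mirror each other, so these values cannot decide whether the numbers pair the samples. CAP-H on replicate 2 has no CAP-H off partner, so the replicate block gives it no weight in the fold changes. The block is thus close to the fit without that library, with NDUFB10 at 0.26 and COX16 at 0.26 in both. Under the replicate block 29 genes rose and 1 fell, and 28 other pathway genes rose and 9 fell. Of all 10079 features, 1865 rose and 1991 fell with the block. NRF1 was not called with it (-0.27, adjusted p = 0.0527). Among the respiratory chain genes, NDUFS4 (adjusted p = 0.165), NDUFS3 (adjusted p = 0.0512) and COX16 (adjusted p = 0.109) were not called with the block. NDUFB10 was called with it (0.26, adjusted p = 0.0162). The calls of NDUFS4, COX16 and NDUFB10 changed likewise without CAP-H on replicate 2, while NDUFS3 kept its call there (adjusted p = 0.0362). Whether pairing has a part in these shifts was not tested. With 2 CAP-H off libraries, leaving 1 out assumes that the other varies like the CAP-H on group.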
